A study of Mus musculus with 12 samples.

Results

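Tumors that had received cediranib, with or without trametinib, were compared with tumors that had not. The members of the comparison were all 12 tumors of the series, 6 cediranib-treated and 6 cediranib-free, chosen by their treatment labels. Each side held 3 tumors without trametinib and 3 with it, so that the cediranib effect could be read once in each trametinib background from tumors that the other background did not use. Of 12897 genes tested, 37 rose and 6 fell in the cediranib-treated tumors. The genes that rose were led by fibroblast growth factor receptor 2 (Fgfr2), the cadherin Celsr2, inner root sheath keratins of the hair follicle (Krt25, Krt27, Krt71, Krt73) and proteins of the cornified layer of skin. The genes that fell were secreted or matrix proteins: Igfbp2, Igfbp3, Aspn, Col16a1, Lrrc17 and Prss23.

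The tumors were subcutaneous flank xenografts of SVR cells, a mouse endothelial line transformed with an oncogenic H-ras that grows as an angiosarcoma, in young adult athymic nude mice. The strain label of every sample reads C57BL/6. Once tumors had formed, mice were dosed daily by gavage with vehicle (control, cremophor, PEG 400 and tween), with trametinib at 1 mg/kg, with cediranib at 3 mg/kg or with both drugs at these doses, 3 tumors each. The labels give ulceration or a size limit as the end of dosing. The study also describes an experiment with 1 common harvest time, and the sources do not say from which of these the sequenced tumors came. All 4 groups therefore shared the H-ras line, the vehicle route and the nude host, which lacks a working thymus. The time on treatment of each tumor is therefore unknown. Per the study's methods the cells were injected into the flank of each mouse, but the labels tie no tumor to an animal, and if tumors shared an animal the p-values would measure only the spread between these samples. RNA came from whole lysates, tumor and host were both mouse, and in such bulk samples fewer cells of a type and less RNA per cell cannot be told apart.

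Vascular endothelial growth factors act on endothelial cells through the receptor kinases VEGFR1, VEGFR2 and VEGFR3 (Flt1, Kdr and Flt4), which drive survival, migration and sprouting, in part through RAS, MEK and ERK. Cediranib is an oral inhibitor of these receptors that also acts on related kinases such as KIT and the PDGF receptors, while trametinib blocks MEK, below RAS. In normal skin the epidermis consists of basal keratinocytes that mature into a cornified layer, and the hair follicle adds an inner root sheath and a hair shaft, each with its own keratins.

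The libraries held 9478865 to 11666094 counts, and levels are given in CPM, counts relative to a TMM-scaled library total. A count of 0 allowed a level of up to 3 counts, which was 0.251 to 0.349 CPM by library. The endothelial label was checked against marker genes: Cdh5 lay between 6.90 and 120.5 CPM in the 12 tumors and Tie1 between 14.8 and 190.2, whereas Pecam1 lay between 0.272 and 5.01. Of 14 markers of T and NK cells none passed the filter on low counts. The epithelial marker Epcam reached at most 0.371 CPM, but other epithelial genes were high in some tumors (Krt5 up to 1580 and Dsp up to 179.5 CPM). Some tumors stood apart from others of their group. The basal keratinocyte keratin Krt14 was at 1694 and 821.6 CPM in cediranib replicates 1 and 3 but at 2.37 in cediranib replicate 2, and at 266.2 in control replicate 1 against 1.72 and 1.01 in control replicates 2 and 3. Skeletal muscle transcripts were high in control replicate 2 and trametinib replicate 2. The calls, the genes shared by the backgrounds and the skin, muscle and fibroblast lists are given below with and without these libraries.

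With the trametinib term in the model, 43 genes were called, with an FDR under 0.05 (edgeR's quasi-likelihood test, Benjamini-Hochberg over all genes) and a log2 fold change of 1.5 or more in either direction. They made up 0.333% of the genes tested, 0.287% for those that rose and 0.0465% for those that fell. With no minimum fold 44 genes passed (0.341%), the additional gene being Ntn4. All 43 were protein coding. Log2 fold changes of the genes that rose ran from 1.54 to 9.42 with a median of 5.35, and those of the genes that fell from -3.58 to -1.57. The adjusted p-values lay between 0.0212 and 0.0497, close to the threshold. Just inside it were Slc34a2 and Tchh (both at 0.0479) and Krt35 (0.0497), and among those just outside were the hair keratin Krt34 (0.0511) and the connexin gene Gjb6 (0.0517).

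The number of calls depended on single tumors. Without cediranib replicate 2 there were 250 calls, including all 43, and without control replicate 1 there were 266, including 42 of the 43. Without control replicate 2, control replicate 3, trametinib replicate 1, trametinib replicate 2, combination replicate 2 or combination replicate 3 no gene was called by edgeR, although 1549 to 1728 genes then had an unadjusted p under 0.05. Without control replicate 2 and trametinib replicate 2 together, 0 genes were called and 1347 had an unadjusted p under 0.05. The sign of each of the 43 genes was the same in all 24 alternatives run.

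**Figure D1:**
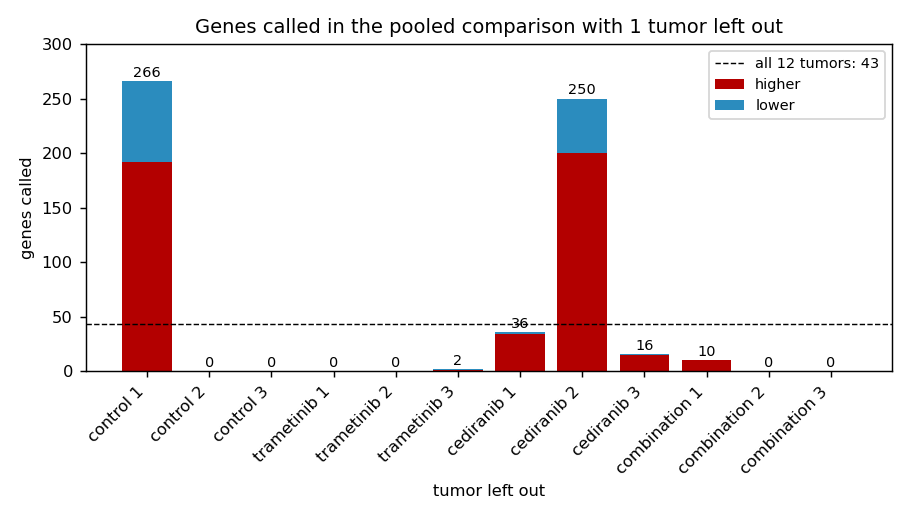
Number of genes called in the pooled comparison (y axis) after leaving out the tumor named on the x axis, split into genes higher (red) and lower (blue) in cediranib-treated tumors. The dashed line marks the 43 genes called with all 12 tumors; leaving out control replicate 1 or cediranib replicate 2 gave 266 and 250 calls, and leaving out any of 6 other tumors gave 0.

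The 43 genes are shown tumor by tumor in the heat map of called genes. In 10 of the 37 genes that rose, all 6 treated tumors lay above all 6 cediranib-free tumors: Celsr2, Clca3a2, Sprr2h, Sostdc1, Fcgbp, Hephl1, Epha1, Pdzd2, Myo5b and Xkrx. Over all genes tested, 0.326% lay apart in this way. In 3 of the 10 the separation rested on few counts: the lowest treated tumor, cediranib replicate 2, held 1 count of Sostdc1, 3 of Clca3a2 and 3 of Hephl1, against 1, 2 and 2 in the highest cediranib-free tumor, which is at or under the 3 counts that a count of 0 allows. In 22 further genes 5 treated tumors lay above all cediranib-free ones, and in the remaining 5, Tchh, Krt25, Krt35, Krt71 and Krt73, 4 did. Cediranib replicate 2 was the lowest of the cediranib tumors in 31 of the 37 genes and within the range of the cediranib-free tumors in 26. Control replicate 1 was the highest cediranib-free tumor in 19 of the 37.

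**Figure D2:**
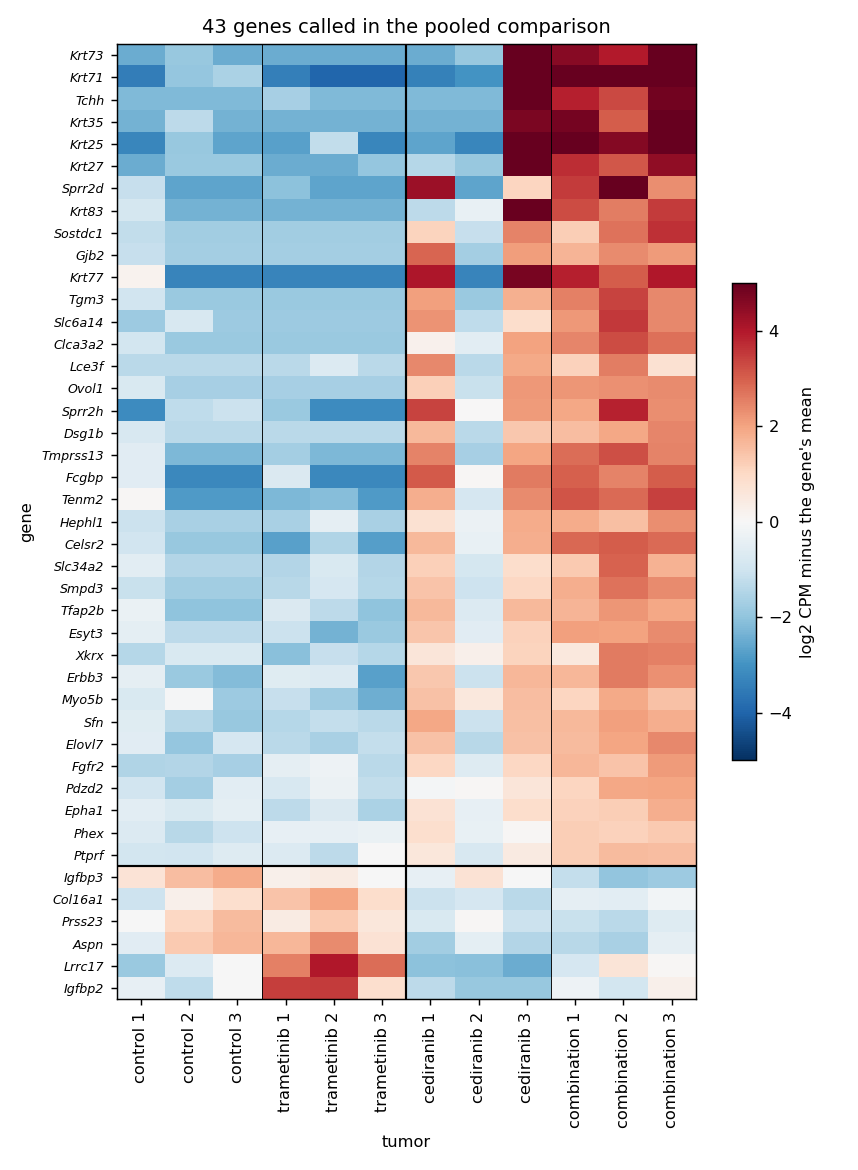
Each line is 1 of the 43 called genes and each column 1 tumor; colour is log2 CPM minus the gene's mean over the 12 tumors, with the scale limited to 5 in either direction. The genes above the horizontal line rose and those below it fell in the cediranib and combination tumors; cediranib replicate 2 resembles the cediranib-free tumors in 26 of the 37 genes that rose, where it lies within their range.

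Receptors and adhesion proteins of epithelial cells were among the genes that rose. Fgfr2, whose epithelial form receives keratinocyte growth factor, lies on chromosome 7 (GRCm38 chr7:130162451-133123350). It was at 2.47, 2.53 and 2.22 CPM in control tumors and at 15.2, 4.63 and 15.4 in cediranib tumors. With trametinib it was at 5.27, 6.17 and 2.76 CPM in trametinib tumors and at 23.8, 20.2 and 33.2 in combination tumors. The groups did not overlap in either background, and only cediranib replicate 2 lay below the highest cediranib-free tumor over all 12. The pooled log2 fold change was 2.37 (SE 0.29, adjusted p = 0.0212, edgeR), with 2.28 (SE 0.44) without trametinib and 2.45 (SE 0.42) with it. The annotated span of Fgfr2 in the deposited table also covers other genes, among them Ate1 on the same strand.

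Celsr2, an atypical cadherin of planar cell polarity (GRCm38 chr3:108390851-108415552), was at 0.303 to 0.766 CPM in control tumors and at 5.6, 1.23 and 6.32 in cediranib tumors. It was at 0.0837 to 0.466 CPM in trametinib tumors and at 13.2, 15 and 13 in combination tumors. All treated tumors lay above all others, with medians of 9.66 and 0.304 CPM. The pooled log2 fold change was 4.51 (SE 0.58, adjusted p = 0.0212, edgeR). It was 3.19 (SE 0.62) without trametinib and 6.06 (SE 0.70) with it. Celsr2 was the only gene of the planar cell polarity list to be called, of 17 tested, where the median log2 fold change was 0.07.

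Other surface proteins rose as well. The Eph receptor gene Epha1 was at 1.09 to 2.53 CPM in the cediranib-free tumors and at 2.65 to 13.3 in the treated ones, with no overlap. Its log2 fold change was 1.92 (SE 0.34). Ptprf, the receptor phosphatase LAR, had a log2 fold change of 1.54 (SE 0.29) and was at 21.3, 8.04 and 19.6 CPM in cediranib tumors against 7.49, 7.30 and 9.19 in controls. Erbb3, a neuregulin receptor of epithelia and Schwann cells, rose by 3.16 on the log2 scale (SE 0.58) and was the only 1 of 4 tested Schwann cell markers to be called. Tenm2, a teneurin adhesion receptor, rose by 4.73 on the same scale (SE 0.88), with levels of 0 to 1.19 CPM in the cediranib-free tumors, 0.567 to 6.79 in cediranib tumors and 9.44 to 14 in combination tumors.

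Secreted regulators and enzymes formed another part of the calls. Sostdc1, a secreted antagonist of BMP and WNT ligands, had 1 count over the 6 cediranib-free tumors and 190 over the treated ones, a ratio of 191 (95% interval 33.9 to 7583, exact binomial, covering counting error only). Its levels were 1.2, 0.0946 and 3.35 CPM in cediranib tumors and 1.31, 3.99 and 7.89 in combination tumors. Phex, a membrane endopeptidase of phosphate balance, rose by 1.62 on the log2 scale (SE 0.26), and Smpd3, a neutral sphingomyelinase, by 3.84 (SE 0.52). Fcgbp, a mucus protein that binds the Fc part of IgG, was at 0 to 1.02 CPM in cediranib-free tumors and at 14.8, 1.70 and 10.7 in cediranib tumors. Combination tumors held 14.1, 9.99 and 14.7 CPM of Fcgbp, so that the groups did not overlap (log2 fold change 4.94, SE 0.78, adjusted p = 0.0304, edgeR). Clca3a2, of a family of chloride channel regulators, had 2 counts in the cediranib-free tumors and 189 in the treated ones, a ratio of 95 (interval 25.9 to 790). Hephl1, a ferroxidase needed for normal hair, had 3 and 95 counts, a ratio of 31.8 (interval 10.6 to 157).

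Genes of keratinocyte identity and of the cornified layer were high in cediranib replicates 1 and 3 and in all combination tumors. Sfn, the 14-3-3 protein of stratified epithelia, was at 3.83, 2.13 and 1.41 CPM in control tumors and at 22.9, 2.65 and 16.9 in cediranib tumors. In trametinib tumors it was at 2.09 to 2.44 CPM and in combination tumors at 18.2 to 25.1. Only cediranib replicate 2 overlapped with the cediranib-free tumors, and the log2 fold change was 2.88 (SE 0.43, adjusted p = 0.0292, edgeR). Sprr2h, a small proline-rich protein of the cornified envelope, was at 0 to 0.606 CPM in the cediranib-free tumors, at 17.2, 1.51 and 7.18 in cediranib tumors and at 6.26, 24.1 and 8.17 in combination tumors. Its groups did not overlap (5.49, SE 0.81). Tgm3, a transglutaminase that cross-links envelope and hair proteins, had 2 counts in all cediranib-free tumors and 201 in the treated ones, none of them in cediranib replicate 2.

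The other calls of this kind, named after their values were seen, were the transcription factors Ovol1 (log2 fold change 5.5, SE 0.88) and Tfap2b (3.80, SE 0.72), the connexin 26 gene Gjb2 (6.41, SE 1.03), the envelope genes Sprr2d (7.19, SE 1.29) and Lce3f (5.65, SE 1.07), and the type II keratin Krt77 (6.26, SE 1.16). The desmosomal cadherin Dsg1b, the membrane protease Tmprss13, the transporters Slc6a14 and Slc34a2, the fatty acid elongase Elovl7, the motor Myo5b, and Esyt3, Pdzd2 and Xkrx made up the rest, with log2 fold changes of 1.98 to 5.99. Small proline-rich genes and keratins are families of close paralogs, and how reads matching several of them were counted is unknown, so that the division of reads among their members is uncertain.

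Of the lists drawn up for skin, the cornified epidermis list had 27 genes, of which 17 were tested. Of these 2 were called and all 17 had a positive log2 fold change (median 3.70). In the trametinib tumors 10 of the 17 had no count. Such genes could pass the count filter through the tumors where they were high, so that the shared sign was in part set by the filter. The basal epidermis list had 13, with 1 called higher, 1 called lower (Igfbp2) and a median of 2.88. The activated epidermis list, of keratins and proteins of wounded or hyperproliferative skin, had 8, with 2 called and a median of 6.07. Over all genes tested the median was 0.00 to 2 decimals, and 6399 had positive and 6496 negative values. The whole keratin family had 37 tested genes of 53 in the table, of which 7 were called and 32 had an unadjusted p under 0.05 with higher values in treated tumors, against 6.78% of all genes tested. Its median log2 fold change was 5.88, or 5.59 with genes absent from the cediranib-free tumors set to their bound. In 4 tested genes of these epidermal lists that were not called, the values were 6.63 (SE 1.5) for Krt17, 3.96 (SE 0.85) for Trp63, the p63 gene of basal keratinocytes, 3.17 (SE 0.71) for loricrin (Lor) and 3.11 (SE 0.64) for Lamb3. Lamb3, a laminin chain of the epidermal basement membrane, lay apart in all 6 against 6 tumors.

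Summed keratin levels show which tumors carried these genes. They were 851.6, 119.1 and 189.4 CPM in control tumors and 91.2, 69.2 and 59.8 in trametinib tumors. They were 5406, 116.0 and 3772 CPM in cediranib tumors and 4925, 7160 and 5564 in combination tumors. Cediranib replicate 2 was thus within the range of the cediranib-free tumors, and every other treated tumor was above all of them. In all, 110 tested genes belonged to the epithelial lists or to the keratin, keratin-associated and small proline-rich families, and 103 of them had a positive log2 fold change. For members with few counts in the cediranib-free tumors this sign was in part set by the count filter. Of the 37 genes that rose, 13 belonged to these 110 and 24 did not. The lists are incomplete: the 24 include the envelope gene Lce3f, the desmosomal cadherin Dsg1b, the connexin gene Gjb2 and the hair gene Hephl1. Without cediranib replicate 2 there were 73 calls higher among 120 such genes tested, and without control replicate 1 there were 64 among 119. Without control replicate 2 and trametinib replicate 2 there were 0 calls by edgeR among 120, with 90 higher at an unadjusted p under 0.05. In the cornified list the calls went from 2 to 9, 16 and 0 under these settings, and in the hair follicle list from 6 to 15, 12 and 0.

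Of the calls, 7 were genes of the hair follicle: the inner root sheath keratins Krt25, Krt27, Krt71 and Krt73, the hair shaft keratins Krt35 and Krt83, and trichohyalin (Tchh), which hardens the inner root sheath. Their log2 fold changes ran from 7.00 (SE 1.31) for Krt83 to 9.42 (SE 1.69) for Krt73. Unlike the cornified genes, they were high in cediranib replicate 3 and not in cediranib replicate 1, which lay within the range of the cediranib-free tumors in 6 of the 7. Krt71 was at 0.0999, 0.189 and 355 CPM in cediranib tumors and at 213, 109.8 and 269 in combination tumors, against 0.808 CPM or less in every cediranib-free tumor. Krt25 was at 0.0999, 0 and 112 CPM in cediranib tumors and at 57.8, 43.2 and 77.0 in combination tumors, against 0.582 or less. Tchh was at 0, 0 and 31.9 CPM in cediranib tumors and at 13, 8.53 and 25.0 in combination tumors, with 1 count in the cediranib-free tumors. Of 21 tested hair follicle genes 6 were called, 13 had higher values with an unadjusted p under 0.05 in both backgrounds, and the median was 6.31. Of 53 keratin-associated protein genes of the hair shaft 8 were tested and none was called. All 8 had higher values (median 7.24, or 5.36 with bounds). Their summed level was at most 1.41 CPM in any control tumor and 0 in the trametinib tumors. They could thus pass the count filter only through treated tumors, and their shared sign was largely set by that filter.

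The 150 bases before the start of the 4 inner root sheath keratin genes are shown because these genes moved together and lie in the keratin clusters of chromosomes 11 and 15 (RefSeq, GRCm38.p6, minus strand, 5′ to 3′). Capitals mark the TATA box letters TATAAA, which begin 30, 15, 40 and 30 bases before the start.
Krt25 (chr11:99322952-99323101): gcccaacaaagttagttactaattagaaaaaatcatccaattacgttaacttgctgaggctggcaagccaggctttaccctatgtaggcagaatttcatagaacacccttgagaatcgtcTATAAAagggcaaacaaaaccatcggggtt
Krt27 (chr11:99351119-99351268): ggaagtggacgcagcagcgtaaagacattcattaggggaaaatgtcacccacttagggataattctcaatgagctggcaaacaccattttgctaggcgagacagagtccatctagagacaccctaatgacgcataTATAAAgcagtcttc
Krt71 (chr15:101743098-101743247): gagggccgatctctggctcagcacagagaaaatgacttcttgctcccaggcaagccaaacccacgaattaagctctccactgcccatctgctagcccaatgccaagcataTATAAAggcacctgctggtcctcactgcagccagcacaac
Krt73 (chr15:101802361-101802510): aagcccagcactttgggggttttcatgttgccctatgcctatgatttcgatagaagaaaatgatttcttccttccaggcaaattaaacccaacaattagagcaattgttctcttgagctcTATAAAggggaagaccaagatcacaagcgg

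Windows of 250 bases before to 50 after the start were found for 28 of the 37 genes that rose, and 5 motifs were searched on both strands. TATAAA stood in 8 of the 28 windows (28.6%), against 7.4% of the windows of all genes tested and 13.6% of all windows in the table. The AP-1 letters TGANTCA stood in 5 (17.9%, against 5.2% of the tested genes), the AP-2 letters GCCNNNGGC in 2 (7.1%, against 25.5%), the grainyhead letters AACCNGTT in 1 (3.6%, against 1.8%) and the OVO letters CCGTTA in 0 (against 3.7%). These shares describe letters in the windows and were not tested.

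The 6 genes that fell encode secreted proteins. Igfbp3, which binds insulin-like growth factors, was at 18.1, 33.0 and 41.5 CPM in control tumors and at 8.39, 18.6 and 11.1 in cediranib tumors. It was at 13.7, 15 and 11.3 CPM in trametinib tumors and at 4.85, 2.72 and 3.06 in combination tumors. The groups overlapped without trametinib, in cediranib replicate 2 and control replicate 1, and did not overlap with it. The log2 fold change was -1.57 (SE 0.26, adjusted p = 0.0305, edgeR). Igfbp3 also belongs to the sprouting endothelium list, where it was the only call among 17 genes tested.

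Aspn (asporin), a small leucine-rich proteoglycan that binds collagen, was at 4.17, 15.8 and 20.2 CPM in control tumors and at 1.70, 4.35 and 2.11 in cediranib tumors. In trametinib tumors it was at 19.97, 32.4 and 10.4 CPM and in combination tumors at 2.22, 1.91 and 4.46 (log2 fold change -2.58, SE 0.42). Within the backgrounds, cediranib replicate 2 lay above control replicate 1 and the other tumors did not overlap. Col16a1, a collagen that associates with fibrils, was at 7.24 to 27.2 CPM in control tumors and at 5.74 to 8.42 in cediranib tumors, and at 27.9 to 60.1 and 10.3 to 13.8 CPM in trametinib and combination tumors (-1.60, SE 0.29). The secreted serine protease Prss23 had a log2 fold change of -1.71 (SE 0.30), with 5.37 to 16.5 CPM in control tumors and 2.49 to 5.67 in cediranib tumors.

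Lrrc17 and Igfbp2 differed most in level between the backgrounds. Lrrc17, a secreted leucine-rich repeat protein, was at 0.255, 0.811 and 1.41 CPM in control tumors and at 0.200, 0.189 and 0.0957 in cediranib tumors. It was at 9.08, 25.5 and 11.1 CPM in trametinib tumors and at 0.707, 2.36 and 1.49 in combination tumors, with no overlap (pooled -3.06, SE 0.47). Without trametinib the lowest control held 3 counts and the cediranib tumors 1 or 2, at or under the limit of 3 counts, so that their levels could not be told apart. Igfbp2 was at 7.63, 7.91 and 1.09 CPM in trametinib tumors and at 0.404, 0.182 and 0.650 in combination tumors (-3.58, SE 0.67). Without trametinib its level was at most 0.505 CPM in any tumor, and it was the only call of the 43 without an unadjusted p under 0.05 in both backgrounds. Lrrc17, Aspn and Prss23 overlap genes on the opposite strand (Fbxl13, Cenpp and Prss23os). The sources do not state whether counting used strand, so that reads of such pairs cannot be told apart.

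Other genes of the matrix had lower values without being called. Of 15 tested fibroblast markers none was called, all 15 had negative log2 fold changes (median -1.20), and 9 had an unadjusted p under 0.05, against 7.27% of all genes tested. Summed fibroblast levels were 2935 to 22870 CPM in control tumors, 10010 to 39910 in trametinib tumors, 2396 to 7898 in cediranib tumors and 4411 to 6872 in combination tumors. The values were -2.16 (SE 0.56) for the collagen I chain Col1a2, -2.36 (SE 0.57) for lumican (Lum) and -2.16 (SE 0.56) for the WNT modulator Sfrp2. Of 20 collagens 1 was called (Col16a1) and 19 had negative values (median -0.87). Without cediranib replicate 2 edgeR called 5 of 16 fibroblast markers lower, without control replicate 1 it called 7, and without control replicate 2 and trametinib replicate 2 it called 0, with 9 at an unadjusted p under 0.05. The genes that fell share their direction with these markers, whose part in the result was not tested.

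The effect of cediranib was then read in each trametinib background separately, in 1 model of 4 groups. With trametinib (combination against trametinib) 87 genes were called, 0.675% of those tested, 69 higher (0.535%) and 18 lower (0.14%). With 1 tumor left out there were 0 to 211 such calls. Without trametinib (cediranib against control) edgeR called 0 genes, the smallest adjusted p was 0.999, and 557 genes (4.32%) had an unadjusted p under 0.05. DESeq2 called 10 genes in that background and limma voom 0. The difference between the backgrounds is given by the interaction below. All 43 pooled calls had the same sign in both backgrounds, 41 had the larger change with trametinib, and 23 were also among the 87. The pooled test combines the backgrounds over these same tumors, so that the shared sign was largely set by the choice of the calls.

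In both backgrounds 222 genes (1.72%) had the same sign with an unadjusted p under 0.05, against 28 genes (0.217%) with opposite signs. Of the 222 genes, 152 were higher (1.18%) and 70 lower (0.543%). All 37 genes that rose in the pooled comparison were among the 152, and 5 of the 6 that fell were among the 70. The pooled calls were chosen from the same tumors, so that this overlap is not a repeat of the result. In addition, 149 genes (1.16%) had groups that did not overlap in either background with the same direction, and 61 (0.473%) with opposite directions. Without control replicate 2 and trametinib replicate 2 the 222 became 116, of which 88 were among the 222, and without cediranib replicate 2 they became 421, of which 184 were. Leaving out control replicate 2 alone took the higher genes from 152 to 93 and the lower from 70 to 32. Leaving out trametinib replicate 2 alone gave 155 and 33, and leaving out both gave 87 and 29.

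**Figure D3:**
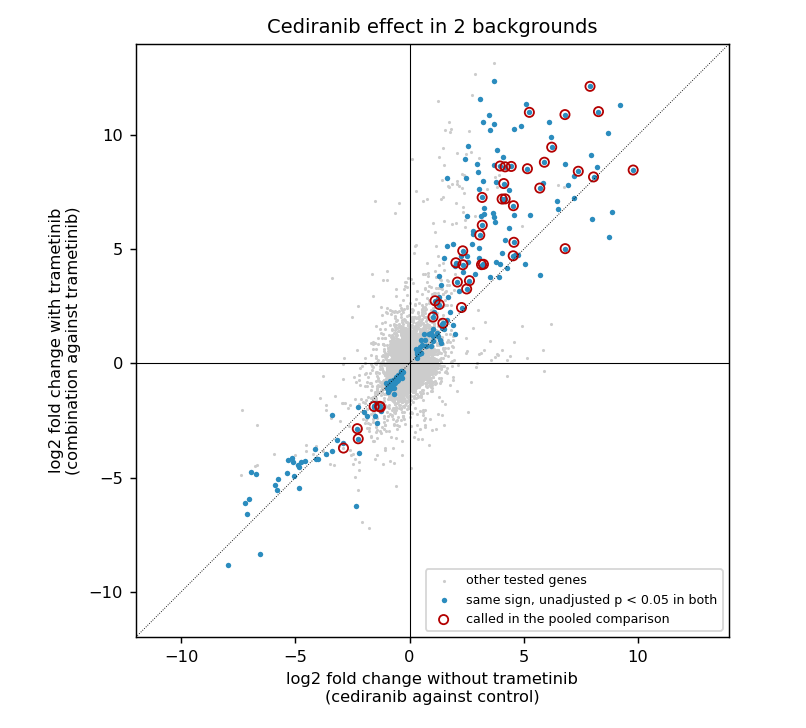
Log2 fold change of cediranib without trametinib (x axis) against that with trametinib (y axis) for each gene tested; the dotted line marks equal values. Blue points are the 222 genes with the same sign and an unadjusted p under 0.05 in both backgrounds and red circles are the 43 pooled calls, of which 41 have the larger change with trametinib.

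Of the 152 higher genes 54 belonged to the epithelial genes counted above (83 without cediranib replicate 2, 62 without control replicate 1, 26 without control replicate 2 and trametinib replicate 2). Those with the largest smaller change of the 2 backgrounds were the hair genes Krt71, Krt73, Krt25 and Tchh, the small proline-rich genes Sprr2b, Sprr2g and Sprr2i, and the hair shaft gene Krtap3-3. The last 4 had no count in any cediranib-free tumor and were not called in the pooled comparison (adjusted p 0.0517 to 0.126, edgeR). Without trametinib, Krt71, Krt73, Krt25 and Tchh were high in cediranib replicate 3 alone. With that tumor left out, 129 genes had the same sign in both backgrounds, against 222 before. Against 3 counts over the cediranib-free tumors, Sprr2b was at least 401-fold, Sprr2g at least 190-fold, Krtap3-3 at least 101-fold and Sprr2i at least 86.1-fold higher. Sprr2g lay above 0 in all 6 treated tumors, at 12.4, 0.757 and 1.82 CPM in cediranib tumors and at 8.18, 25.3 and 5.20 in combination tumors, whereas Sprr2b was at 21.5 CPM in cediranib replicate 1 and at 0 in the other cediranib tumors.

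The 70 lower genes were led by skeletal muscle genes, among them the fast myosin heavy chain Myh4, the myosin-binding protein Mybpc2, parvalbumin (Pvalb), the creatine kinase Ckm, alpha-actinin 3 (Actn3), the calcium pump Atp2a1 and troponin T3 (Tnnt3). Their pooled log2 fold changes ran from -8.38 (SE 2.00) for Myh4 to -5.38 (SE 1.39) for Tnnt3, and none was called. Ckm was at 2.64, 291 and 0 CPM in control tumors and at 3.18, 315 and 25.9 in trametinib tumors. It was at 0.699, 0 and 1.24 CPM in cediranib tumors and at 2.93, 0.635 and 1.49 in combination tumors. The high values came from control replicate 2 and trametinib replicate 2, and summed levels of 18 muscle markers were 21060 and 32490 CPM in these tumors, against 88.0 to 2642 CPM in the other 10. Of the 18 markers 11 were among the 70 genes and none was called. Without control replicate 2, without trametinib replicate 2 or without both, 0 muscle markers were shared by the backgrounds. With both left out, 17 were tested, their median went from -4.49 to -1.19, and 5 had lower values with an unadjusted p under 0.05, against 15 before. Without cediranib replicate 2 there was 1 shared muscle marker, and without control replicate 1 there were 14, with 10 called lower.

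The interaction of cediranib with trametinib asks whether the effect differs between the backgrounds, and edgeR called 0 genes (909 genes, 7.05%, with an unadjusted p under 0.05; 28 calls by DESeq2). The smallest adjusted p was 0.185. Dusp6, a phosphatase induced by ERK, was at 39.0 to 47.7 CPM in control and 41.4 to 43.6 in cediranib tumors. It was at 4.54, 1.98 and 3.60 CPM in trametinib and at 13.9, 11.3 and 10.2 in combination tumors, an interaction of 1.84 (SE 0.32) on the log2 scale. Il1b, an inflammatory cytokine, was at 0.233 to 0.545 CPM in trametinib and 3.23 to 6.54 in combination tumors, with 1.72 to 3.44 in the other tumors (interaction 3.64, SE 0.60). Crabp2, a retinoic acid carrier, was at 48.4, 53.1 and 68.1 CPM in trametinib tumors and at 12.8, 10.3 and 18.2 in combination tumors, with at most 3.16 in the others (interaction -2.72, SE 0.45). Of the 43 pooled calls 6 had an unadjusted interaction p under 0.05, among them Celsr2 (2.87, SE 1.01), and their smallest adjusted p was 0.649.

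None of the 7 genes listed as cediranib targets was called by edgeR, and 2 (Flt4 and Pdgfrb) had an unadjusted p under 0.05. Kdr had a log2 fold change of -0.48 (SE 0.38, adjusted p = 0.595, edgeR), with a median of 4.38 CPM in cediranib-free and 3.04 in treated tumors. Flt1 was at -0.05 (SE 0.26) and Flt4 at -1.14 (SE 0.44). Kit was at 0.44 (SE 0.78), with -1.05 (SE 0.82) without and 2.25 (SE 0.92) with trametinib. For the PDGF receptors the values were -0.36 (SE 0.18) for Pdgfra and -0.99 (SE 0.31) for Pdgfrb, which was at 7.98, 6.81 and 9.93 CPM in combination and at 17.0, 29.7 and 15.3 in trametinib tumors. Without trametinib the Pdgfrb levels overlapped, at 17.5, 25.3 and 36.1 CPM in control and 11.1, 29.3 and 8.81 in cediranib tumors. Fgfr1 was at -0.09 (SE 0.13), while Fgfr2 was the only call among 10 tested FGF receptors and ligands. These are transcript levels and say nothing of receptor activity.

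Of 21 tested endothelial markers 0 were called by edgeR, 2 had an unadjusted p under 0.05, and 17 had negative values (median -0.28). Summed endothelial levels were 596.6 to 1040 CPM in control and 468.4 to 884.5 in cediranib tumors, and 228 to 314.1 CPM in trametinib and 235.4 to 342.8 in combination tumors. In the sprouting endothelium list, which holds genes of tip cells and of the vessel wall under VEGF, 6 of 17 had lower values with an unadjusted p under 0.05, against 7.27% of all genes tested, and Igfbp3 was called. The median of that list was -0.38, and 4 of the 17 values were positive. Vessel and basement membrane genes far below these medians were the Notch ligand Dll4 (-1.66, SE 0.62), Robo4 (-1.84, SE 0.49), Mcam (-1.23, SE 0.37), Nid2 (-1.61, SE 0.43) and Lama4 (-1.54, SE 0.46), none of them called. Control replicate 3 was the highest control for Dll4 (15.7 CPM against 2.39 and 4.66) and Robo4 (7.58 against 1.70 and 2.13). EdgeR called 0 genes among 12 VEGF ligands and co-receptors (median -0.10, 1 lower with an unadjusted p under 0.05), 15 early VEGF response genes (0.04, 1 higher) and 3 lymphatic markers (0.37, 1 lower). It also called 0 of 5 genes of the angiopoietin and TIE system (-0.24, 0), 10 pericyte and smooth muscle genes (-1.05, 5 lower), 9 genes of the PDGF and KIT axis (-0.36, 3 lower) and 17 Notch genes (0.05, 2 higher and 3 lower). The pericyte and smooth muscle list summed to 1901 CPM in trametinib replicate 2, against 211.8 and 325.7 in the other trametinib tumors. In that muscle-rich tumor its members Des and Acta2 were at 858 and 948.8 CPM.

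Other cell types and programs are given by their lists, in which no gene was called in the pooled comparison. Mast cell markers had positive values in all 5 tested genes (median 1.79), 3 of them with an unadjusted p under 0.05. Their summed levels were 5.37 to 40.7 CPM in control, 23.8 to 37.6 in cediranib, 7.12 to 18.8 in trametinib and 62.5 to 120.8 in combination tumors. Cpa3, a mast cell protease, was at 0.101 to 0.999 CPM in cediranib-free tumors, 0.999 to 1.72 in cediranib and 2.00 to 6.96 in combination tumors (2.36, SE 0.51, adjusted p = 0.0672, edgeR). Macrophage markers had negative values in 13 of 15 tested genes (median -0.62, 7 with an unadjusted p under 0.05), with -0.93 (SE 0.28) for Cd68 and -1.18 (SE 0.37) for C1qb. Erythroid genes had negative values in all 5 (median -1.92, 3 with an unadjusted p under 0.05) and neutrophil markers positive ones in all 3 (1.16, 1). Summed erythroid levels overlapped without trametinib, at 260.2, 74.0 and 1791 CPM in control and 54.0, 569.6 and 62.2 in cediranib tumors. They were 54.1 to 90.3 CPM in trametinib and 15.1 to 16.1 in combination tumors. The medians of 5 dendritic and Langerhans cell, 6 sebaceous gland and 8 adipocyte genes were 0.41, 0.24 and -0.03, with 0, 3 and 0 genes at an unadjusted p under 0.05. The single tested melanocyte and B cell markers had values of 0.04 and 0.37.

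Among programs, likewise without a call in the pooled comparison, 28 mitosis genes had a median of -0.20, with 25 negative values and 9 unadjusted p under 0.05. Ube2c, an E2 enzyme of mitotic exit, was the only 1 of them with no overlap of the 6 and 6 tumors: it was at 73.2 to 224 CPM in cediranib-free and at 54.2 to 67.0 in treated tumors (-1.09, SE 0.25, adjusted p = 0.0842, edgeR). Of all genes tested, 0.116% lay apart in this direction. It overlaps Tnnc2, a muscle troponin gene on the opposite strand, and its highest values were in control replicate 2 and trametinib replicate 2, the tumors with high muscle transcripts. The 27 S phase genes had a median of -0.06. The 21 ERK output genes had positive values in 19 (median 0.42), with medians of 0.01 without and 0.85 with trametinib, where 2 were called higher. The 17 cholesterol synthesis genes were all positive (0.31), with 0.59 without and 0.05 with trametinib, and 16 interferon-stimulated genes had a median of 0.37. Medians of the hypoxia and glycolysis (22), WNT (29), hedgehog (10), complement (13) and chemokine (5) genes lay at 0.03, -0.27, 0.09, -0.35 and -0.38, with 1, 8, 0, 3 and 1 genes at an unadjusted p under 0.05. With trametinib, 2 WNT genes were called higher, and 1 chemokine, 1 macrophage and 1 fibroblast gene were called lower.

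Because epidermal markers moved with the groups, an epidermal score was computed for each tumor as the mean log2 CPM of 29 tested epidermal genes that are not keratins, of which 3 are themselves called. It was 0.982, -0.464 and -0.473 in control, -0.835, -0.965 and -1.121 in trametinib, 2.539, -0.517 and 2.637 in cediranib and 2.666, 3.263 and 2.951 in combination tumors. Every treated tumor other than cediranib replicate 2 lay above all cediranib-free tumors. The score came from these same data: all 29 genes had positive pooled log2 fold changes, 26 of them with an unadjusted p under 0.05 (edgeR). It therefore overlaps with the cediranib term, and a loss of calls with it cannot tell the 2 apart. With the score added to the model, edgeR called 0 genes and 356 had an unadjusted p under 0.05. The change of 42 of the 43 genes became smaller, and the median of the 37 that rose went from 5.35 to 1.66. Fgfr2 then had a log2 fold change of 1.29 (SE 0.42), Celsr2 of 2.09 (SE 0.49), Igfbp3 of -0.68 (SE 0.29) and Aspn of -1.37 (SE 0.66), while Igfbp2 moved to -3.99 (SE 1.77).

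**Figure D4:**
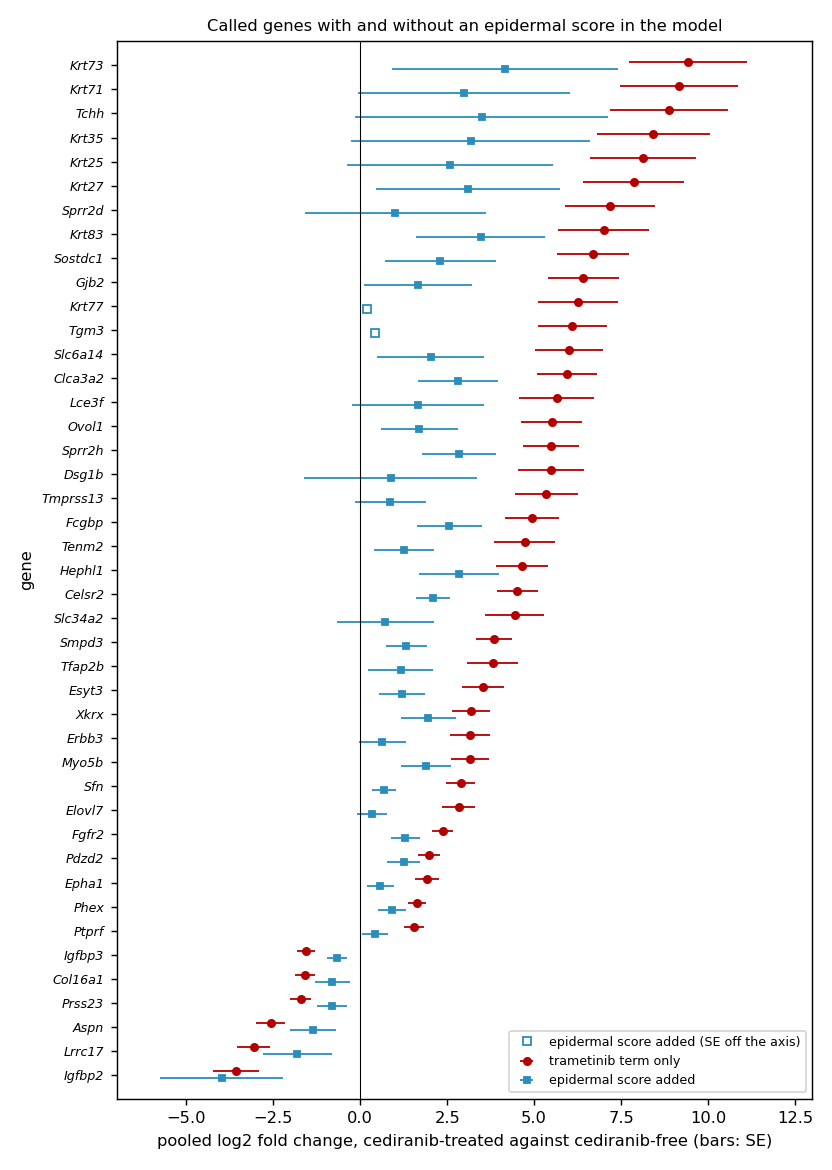
Pooled log2 fold change (x axis, bars are SE) of the 43 called genes with the trametinib term alone (red circles) and with the epidermal score added (blue squares). Open squares mark Tgm3 and Krt77, whose SE with the score exceeds the axis; 42 of the 43 values lie closer to 0 with the score.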

How the data were processed

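RNA-seq counts of 12 SVR xenograft tumors were analysed, assigned to treatments by their titles and treatment labels. Per the labels and the study's methods, the authors prepared exome-capture libraries (TruSeq RNA Exome, chosen for degraded RNA), demultiplexed reads and wrote FASTQ files with bcl2fastq 1.8.4, aligned reads to GRCm38 with STAR 2.7.1a and counted them with featureCounts 1.6.0. The deposited values were raw counts per gene. The sources used here do not state the annotation release, the strand setting or the handling of multi-mapping reads. Exome capture counts only transcripts that its probes reach.

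Of 54232 genes, 29102 had a count and 12897 passed filterByExpr (minimum count 10, minimum total 15), and 99.78% or more of each library's counts fell on the latter. TMM factors ran from 0.908 to 1.10. Counts were fitted with edgeR 4.0.16 (R 4.3.3, quasi-likelihood), pooled with a cediranib and a trametinib term, and by background in a 4-group model. The methods name edgeR without the test or filter. A call required an FDR of 0.05 and an absolute log2 fold change of 1.5. SEs were derived from the F statistic, log2 CPM used a prior count of 2, and counting intervals were exact (Clopper-Pearson, 95%). DESeq2 1.42.0, limma 3.58.1 (voom) and the alternatives of the closing section were run beside it, and the scripts were tested on simulated data. No pair of libraries was identical, and 0 columns belonged to no sample.

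Named were the 10 genes with the smallest p in each direction of the pooled calls, the 8 higher and 8 lower with the largest smaller change in both backgrounds, the 7 targets, up to 4 genes per list and 3 interaction genes in each direction. Some genes that met these rules are not reported here. Others were named after their values were seen: the remaining calls, the genes just outside the threshold, and those given as such. The comparison, the gene lists and the rules were chosen with earlier results of these data known. A list is described by counts and its median, without a test. Overlapping genes were taken from GENCODE M21 and sequences from RefSeq.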

Additional observations from a re-analysis of the deposited data

Results flagged for a closer look

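Of 222 groups of 6 tumors checked on the log2 scale, 26 held a tumor farther from the others than Dixon's 95% limit for 6 values. Chance flags about 1 in 20 groups, and genes and lists that move together are not independent. Cediranib replicate 2 accounted for 22 of these. Among the cediranib-treated tumors it was the low value for Sfn (1.51), Fcgbp (0.92), Elovl7 (0.41), Erbb3 (-0.23), Krt17 (-0.23), Tenm2 (-0.40), Tfap2b (-1.08), Trp63 (-1.40), Ovol1 and Tmprss13 (both -1.81), Lor (1.77), and Tgm3, Krt77, Gjb2, Dsg1b and Sprr1b (all -2.39, the value of 0 counts). It was also the low value for the summed CPM of the basal epidermis (8.86), cornified epidermis (5.34), activated epidermis (5.20), epidermis without keratins (6.87) and keratin family (6.86) lists. For Pdgfrb it was the high value among treated tumors (4.88).

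Control replicate 1 was the high value among cediranib-free tumors for the activated epidermis list (7.63) and for Krt17 (5.09). Control replicate 3 was the high value for Robo4 (2.96), and cediranib replicate 3 for the summed FGF receptors and ligands (9.22).

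For Ccr1 and Aldh1l1 the tumors of the backgrounds moved in opposite directions, but neither interaction was called by edgeR (adjusted p 0.185 for both). Ccr1, a chemokine receptor, had an interaction of 3.87 (SE 0.60), with -0.59 without and 3.28 with trametinib. Aldh1l1, an enzyme of folate metabolism, had one of -2.07 (SE 0.35): it was at 2.42 to 3.24 CPM in control and 4.88 to 6.99 in cediranib tumors, and at 4.44 to 5.70 in trametinib and 1.91 to 2.78 in combination tumors.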

How the results depend on the processing

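The 43 pooled calls (0 to 663 over all alternatives) became 69 with library totals alone (median shift of all genes 0.07), 663 without the low-count filter, 266 by DESeq2, 0 by limma voom (1711 with an unadjusted p under 0.05), 0 with the epidermal score, 24 without the trametinib term, 80 as the mean of the backgrounds, 2 with a skeletal muscle score (an alternative chosen after seeing the data) and 0 without control replicate 2 and trametinib replicate 2 (also chosen after seeing the data). Leaving out 1 tumor gave 0 to 266. The 0 calls without trametinib became 324 without the filter, 10 by DESeq2 and 0 to 7 with 1 tumor left out, the 7 without cediranib replicate 2. The 87 calls with trametinib became 773 without the filter, 347 by DESeq2, 16 by voom, 0 with the epidermal score, 274 with that background fitted alone, 5 with the muscle score, 7 without control replicate 2 and trametinib replicate 2, and 0 to 211 with 1 tumor left out, where trametinib replicates 1 to 3 gave 16, 3 and 6, combination replicates 1 to 3 gave 21, 0 and 10, control replicate 1 gave 163, cediranib replicate 1 gave 53 and cediranib replicate 2 gave 211. The 0 interaction calls became 261 without the filter, 28 by DESeq2 and 0 to 1 with 1 tumor left out (1 without cediranib replicate 3). The 222 genes with the same sign in both backgrounds became 751 without the filter, 95 by voom, 79 with the epidermal score (29 higher, 50 lower, 8 of the 222), 52 at an unadjusted p of 0.01, 116 with each background fitted alone, 116 without control replicate 2 and trametinib replicate 2, and 125 to 448 with 1 tumor left out. The cause was not tested for any of these.

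Replicate numbers were shared by the groups, but of 18 same-numbered pairs only 3 correlated above 0.1 (range -0.22 to 0.36), so that the numbers were not taken as pairs. With a replicate block there were 34 pooled calls, 57 with trametinib, 0 without, 0 interactions and 225 genes with the same sign in both backgrounds. DESeq2's size factors gave 42 pooled calls.

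All 43 called genes kept their sign in all 24 alternatives and were called in 7 to 15 of them. With 1 tumor left out Flt1 ranged from -0.25 to 0.07 and Kit up to 1.35. Signs reversed for Flt1 with library totals alone (0.01) and without control replicate 3 (0.03), cediranib replicate 1 (0.07), cediranib replicate 3 (0.01) or combination replicate 2 (0.06), for Kit without control replicate 2 and trametinib replicate 2 (-0.06) and with the muscle score (-0.16), and with the epidermal score for Kdr (0.26), Pdgfrb (0.02), Trp63 (-0.17), Sprr1b (-0.01) and Krt17 (-0.59). Genes with few counts in the cediranib-free tumors, at 0.251 to 0.349 CPM for 3 counts, have folds that depth limits.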

Other observations

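Beyond the calls, 1 gene passed the adjusted p threshold with a change smaller than the minimum. Ntn4, netrin-4, a basement membrane protein of vessels and epithelia, was at 5.45, 4.66 and 4.34 CPM in control and 2.5, 3.40 and 3.06 in cediranib tumors. It was at 7.08, 8.85 and 7.95 CPM in trametinib and 3.43, 3.18 and 2.78 in combination tumors. All 6 treated tumors lay below all 6 cediranib-free tumors (log2 fold change -1.02, SE 0.17, adjusted p = 0.0311, edgeR), with -0.69 (SE 0.21) without and -1.34 (SE 0.21) with trametinib.

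The following genes were also chosen after their values were seen and are given as values. The imprinted noncoding RNA H19 was at 1.96, 63.9 and 35.4 CPM in control and 0.300, 1.8 and 1.53 in cediranib tumors, and at 7.17, 217 and 26.5 in trametinib and 5.05, 1.45 and 5.94 in combination tumors. Its groups did not overlap in either background (-4.51, SE 0.92, adjusted p = 0.0562, edgeR), and its highest values were in the tumors with high muscle transcripts. Thbs2, a matrix protein that inhibits angiogenesis, had a log2 fold change of -2.03 (SE 0.46) and was at 21.3 to 99.2 CPM in treated and 59.1 to 363 in cediranib-free tumors. Values were -3.18 (SE 0.71) for Islr, a marker of mesenchymal cells, -1.64 (SE 0.39) for the matrix protein Sparcl1 and -2.08 (SE 0.44) for the proteoglycan osteoglycin (Ogn). Among genes of lipid storage, perilipin 2 (Plin2) had -0.64 (SE 0.13, adjusted p = 0.0538, edgeR), with 24.6 to 64.5 CPM in treated and 48.7 to 81.9 in cediranib-free tumors, and the triglyceride enzyme Dgat2 had 1.08 (SE 0.26).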
